A study of Mus musculus with 112 samples.

Results

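The interstitial matrix of the heart is the mesh of fibrillar collagens, elastic fibres, fibronectin and proteoglycans that fibroblasts lay down between cardiomyocytes. Collagen chains fold in the endoplasmic reticulum with a dedicated chaperone, are trimmed by procollagen proteinases outside the cell, and are then linked to each other by lysyl oxidases, copper enzymes that make collagen and elastin fibres stiff and hard to dissolve. The amount and crosslinking of this mesh set the passive stiffness of the ventricle. The genes described here are 41 genes of this mesh, taken as a list of names that was chosen with earlier results of these data known. Of these, 38 have a probe set that carries their symbol alone, each of them a single probe set, and they are set against 19938 genes measured in the same way. Loxl2 is on a probe set shared with another symbol, and Fbn1 and Adamts2 were not matched to a named probe set, so these 3 are not analysed here.

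Hearts came from male mice of 7 strains, each under caloric restriction (CR) or control feeding, with 8 mice in each of the 14 groups and 1 Affymetrix Mouse Gene 1.0 ST array for each mouse. The strains were 129S1/SvImJ, BALB/cJ, C57BL/6J, C3H/HeJ, CBA/J and DBA/2J, which are inbred, and B6C3F1/J, the hybrid of C57BL/6J and C3H/HeJ parents. All mice, housed singly, ate 84 kcal per week of a purified diet until the age of 8 weeks, when CR began, and were killed at 22 weeks after a night without food. In C57BL/6J and 129S1/SvImJ the CR ration was lowered once more partway, and BALB/cJ mice were given more food in both arms. The labels name no transgene or deletion in any group. The question was which genes respond to CR in mice of different genetic background.

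The values are log2 signals, on which a difference of 1 is a doubling, and array medians lay between 5.31 and 5.70. DBA/2J CR replicate 7 correlated at 0.262 with the rest of its group and was left out, which leaves 55 CR and 56 control hearts. Their median correlation was 0.993. The 6 arrays that stand apart below were kept in the main fit. They are CBA/J control replicate 1 (0.894), C57BL/6J CR replicate 4 (0.960) and B6C3F1/J CR replicate 2 (0.961). The others are DBA/2J control replicate 5 (0.963), BALB/cJ control replicate 7 (0.974) and C3H/HeJ control replicate 6 (0.985). Endothelial marker means were 7.34 in CBA/J control replicate 1 and 7.38 in B6C3F1/J CR replicate 2, the lowest of each diet. The mean of 9 ventricular cardiomyocyte markers was 10.93 to 12.08 in CR hearts and 10.45 to 12.11 in control hearts (most of these are also expressed in atria). The ventricular myosin light chain Myl2 was 6.97 in C57BL/6J control replicate 4, where the ventricular factor Irx4 was 4.88, and Myl2 was 11.31 or more in every other heart used. That control heart stands apart in its ventricular markers. The across-strain counts, the calls in C57BL/6J and the hybrid calls are also given without it. The other C57BL/6J effects and the control means below include that heart unless said otherwise. Without it the same count of matrix genes, 7, was lower across strains and 0 were higher. The mean of 7 atrial cardiomyocyte markers varied far more, at 5.66 to 11.05 in CR hearts and 5.73 to 11.04 in control hearts. It exceeded 8 in no 129S1/SvImJ heart, in 3 of 8 CR and 6 of 8 control hearts of C57BL/6J, and in 5 of 8 CR and 2 of 8 control hearts of B6C3F1/J. The mean of 9 white adipocyte markers was 6.08 to 9.62 in CR hearts and 6.15 to 10.02 in control hearts. Both are given below wherever they move with a result. In RNA from heart tissue of mixed cell types, fewer cells of a type and less RNA per cell cannot be told apart.

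Across the 7 strains, 7 of the 38 matrix genes fell under CR and 0 rose. The genes that fell were Loxl1, Col3a1, Sparc, Fbln5, Col6a1, Serpinh1 and Col5a1, which span a crosslinking enzyme, collagen chains, a collagen chaperone and proteins that bind collagen or elastin. Falls were small, between 1.05-fold and 1.19-fold, and the ranges of CR and control hearts overlapped for each of the 7. Over all 19938 genes the same test called 4.34% lower and 7.69% higher, and 12% in either direction. The matrix genes were chosen with earlier results of these data known and were not tested against these shares. The test was limma on the 14 group means, with Benjamini-Hochberg adjustment over all 19938 genes and a threshold of 0.05. The median CR effect was -0.05 over the 38 genes and -0.0026 over all genes, and 28 of the 38 effects were below 0.

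**Figure D1:**
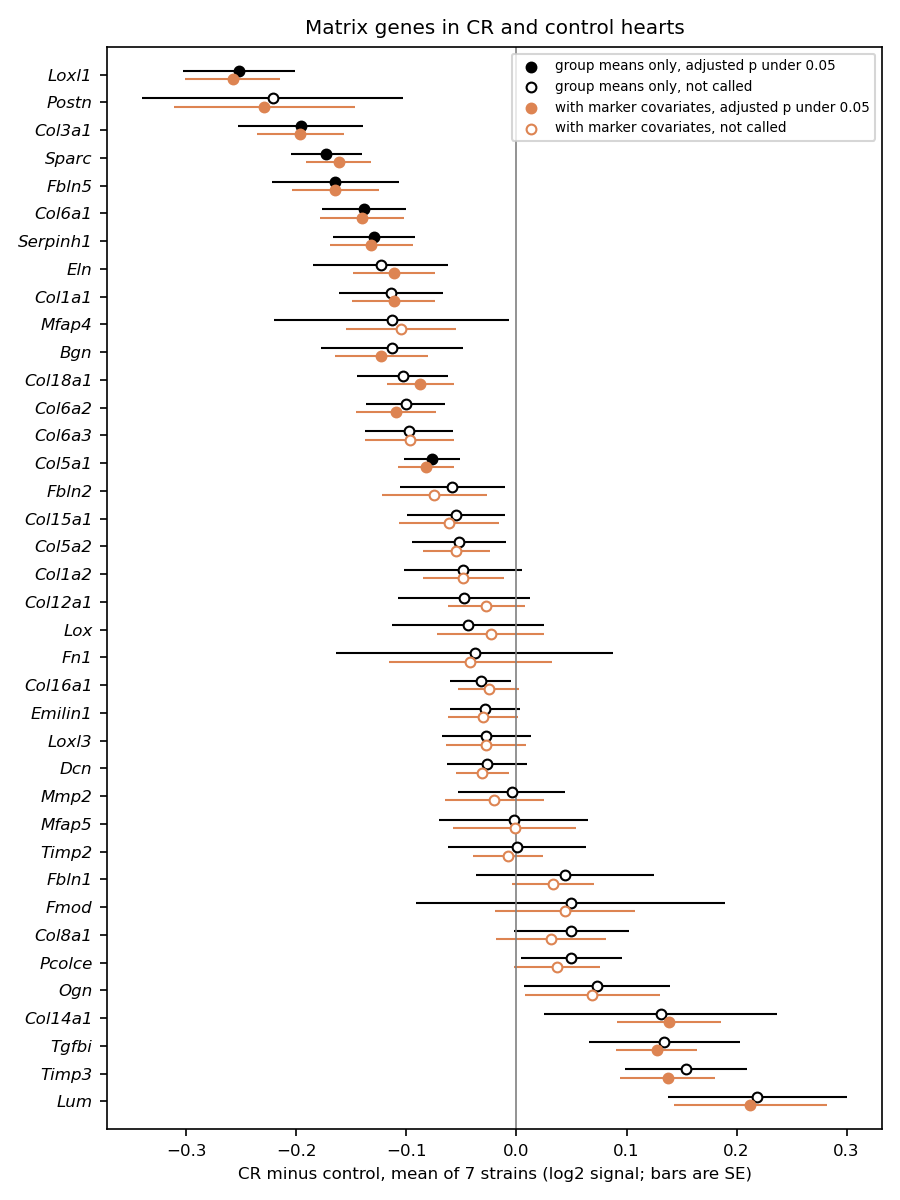
CR effect on each of the 38 matrix genes, as the mean over 7 strains of CR minus control on the log2 scale with its SE. Black points come from the group means alone and orange points from the fit that also holds the marker means of atrial and white adipocyte cells. Filled points passed an adjusted p of 0.05, and the 7 filled black points all lie below 0.

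The sequence just before the annotated transcript start is shown for 6 of the 7 genes that fell, so that the members called across strains can be read side by side. Each is 150 bases on the gene's own strand, 5′ to 3′ and ending at the base before the start, from RefSeq on build GRCm38.p6. Capitals mark matches on either strand to 5 motifs. They are TATAAA (the TATA box), CCAAT (bound by NF-Y), GGGCGG (the GC box bound by Sp1), TGANTCA (the AP-1 site) and CATTCC (the site of TEAD factors). None of these motifs overlapped another in the windows shown.
Col3a1, chr1:45311388-45311537, plus strand: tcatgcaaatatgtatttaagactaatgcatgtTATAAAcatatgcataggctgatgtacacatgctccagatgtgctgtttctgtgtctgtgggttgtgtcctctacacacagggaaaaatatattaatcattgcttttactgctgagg
Col5a1, chr2:27886275-27886424, plus strand: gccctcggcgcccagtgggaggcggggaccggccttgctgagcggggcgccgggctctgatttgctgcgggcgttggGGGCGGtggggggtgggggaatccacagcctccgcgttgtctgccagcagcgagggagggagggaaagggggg
Col6a1, chr10:76726045-76726194, minus strand: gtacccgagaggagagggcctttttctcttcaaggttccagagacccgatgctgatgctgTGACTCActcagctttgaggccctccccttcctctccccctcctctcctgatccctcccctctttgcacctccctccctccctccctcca
Serpinh1, chr7:99353240-99353389, minus strand: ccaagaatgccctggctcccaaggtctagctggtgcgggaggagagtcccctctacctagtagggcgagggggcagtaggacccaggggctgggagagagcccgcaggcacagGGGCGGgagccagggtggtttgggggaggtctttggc
Sparc, chr11:55420081-55420230, minus strand: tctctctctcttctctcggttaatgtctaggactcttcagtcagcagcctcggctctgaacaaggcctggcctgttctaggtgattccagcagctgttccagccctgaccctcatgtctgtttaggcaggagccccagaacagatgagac
Fbln5, chr12:101819120-101819269, minus strand: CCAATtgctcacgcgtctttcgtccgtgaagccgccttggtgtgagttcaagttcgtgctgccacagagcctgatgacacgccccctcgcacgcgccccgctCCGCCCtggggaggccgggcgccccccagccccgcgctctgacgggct

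The 6 windows share no one motif. The GC box is in 3 of them (Col5a1, Serpinh1 and Fbln5), the TATA box only in that of Col3a1, and the AP-1 site only in that of Col6a1. Fbln5 has a further annotated start, whose window holds none of the 5. Over all 32851 RefSeq windows of the same length, 28.6% hold the GC box, 24.5% CCAAT, 7.57% the TATA box, 7.59% CATTCC and 4.24% the AP-1 site. Of the 29 windows of the 24 measured matrix genes that have one, 13 hold the GC box, 3 CCAAT, 2 the TATA box, 3 CATTCC and 1 the AP-1 site. These are matches of letters and no measure of binding.

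The 5 fibrillar collagen chains, which form the load-bearing fibres, all had effects below 0 and 2 passed the test. Col3a1 (probe set 10346015) encodes the single chain of type III collagen, the fine reticular fibre of the heart. Its log2 signal was 6.43 at the lowest, 7.03 at the median and 8.22 at the highest in CR hearts, against 6.74, 7.26 and 8.11 in control hearts. The ranges of the diets overlap, with CR hearts holding both the lowest and the highest value. The across-strain effect was -0.20 ± 0.057 (SE, 1.15-fold lower, limma adjusted p = 0.012), and 5 of 7 strain effects were below 0. With C57BL/6J left out the effect was -0.10 (adjusted p = 0.322), and with 129S1/SvImJ left out it was -0.20 (adjusted p = 0.0518).

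Col5a1 (probe set 10470462) encodes the type V chain that nucleates collagen fibrils and limits their width. It was 5.79, 6.24 and 6.57 (lowest, median, highest) in CR hearts and 5.91, 6.33 and 6.65 in control hearts. The fall was the smallest of the 7, at -0.08 ± 0.0255 (limma adjusted p = 0.031), yet all 7 strain effects were below 0, from -0.12 in B6C3F1/J to -0.04 in C3H/HeJ. Col1a1 and Col1a2 encode the chains of type I collagen, the bulk of the mesh. Col1a1 was 6.48, 7.11 and 8.13 in CR hearts and 6.57, 7.24 and 7.88 in control hearts, and its effect of -0.11 ± 0.047 did not pass (limma adjusted p = 0.103). Col1a2 was 6.58, 7.56 and 8.49 in CR hearts and 6.80, 7.58 and 8.48 in control hearts, with an effect of -0.05 ± 0.053 (limma adjusted p = 0.62) that turned to 0.01 without C57BL/6J. Col5a2, the partner chain of Col5a1, had an effect of -0.05.

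Collagen VI forms beaded microfilaments that tie cells to the fibres. Col6a1 (probe set 10370210) was 6.88, 7.55 and 7.93 in CR hearts and 7.01, 7.70 and 8.04 in control hearts. It fell by 0.14 on the log2 scale (SE 0.038, 1.10-fold, limma adjusted p = 0.0074), and all 7 strain effects were below 0. Its fall held under each of the 30 alternatives run, at an adjusted p of 0.0472 or less. The partner chains ran alongside, since Col6a2 had an effect of -0.10 (adjusted p = 0.051) and Col6a3 one of -0.10 (adjusted p = 0.098), and neither passed. Among the other collagens 0 of 6 passed. Col18a1 and Col15a1, which border basement membranes, had effects of -0.10 and -0.05. Col12a1, Col14a1 and Col16a1, which decorate fibrils, had effects of -0.05, 0.13 and -0.03, and Col8a1, a short-chain collagen of vessels and valves, 0.05.

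Serpinh1 (probe set 10565794) encodes HSP47, the chaperone that procollagen needs to fold and leave the endoplasmic reticulum. It was 6.67, 7.59 and 8.21 in CR hearts and 6.88, 7.73 and 8.38 in control hearts. It fell by 0.13 (SE 0.037, 1.09-fold, limma adjusted p = 0.011), with effects below 0 in 6 strains. Its fall was widest in CBA/J, where CR hearts spanned 7.43 to 7.71 and control hearts 7.67 to 8.24, so that the groups barely overlapped. Without CBA/J the effect was -0.10 (adjusted p = 0.105). Pcolce, an enhancer of the enzyme that trims procollagen, had an effect of 0.05.

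Loxl1 (probe set 10594066), a lysyl oxidase that crosslinks elastin and collagen, had the largest fall among the genes that passed. It was 6.28, 7.15 and 8.04 in CR hearts and 6.62, 7.42 and 7.93 in control hearts. The effect was -0.25 ± 0.051 (1.19-fold lower, limma adjusted p = 1.4e-04), below 0 in 7 of 7 strains, and it passed under each of the 30 alternatives, at an adjusted p of 0.00938 or less. The strain effects ran from -0.58 in C57BL/6J to -0.02 in CBA/J. In CR hearts of 129S1/SvImJ the signal was 6.28, 6.85 and 7.15, against 6.92, 7.15 and 7.37 in control hearts. Lox, the founding member of the family, had an effect of -0.04 (adjusted p = 0.75). Its strain values ran from -0.50 in C57BL/6J to 0.29 in CBA/J, but its strain by diet interaction was not called (limma F test, adjusted p = 0.24). Loxl3 had an effect of -0.03.

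Sparc (probe set 10386058) encodes osteonectin, a matricellular protein that binds collagen and helps procollagen assemble outside the cell. It was 9.84, 10.64 and 11.16 in CR hearts and 10.28, 10.81 and 11.11 in control hearts. The fall of 0.17 (SE 0.033, 1.13-fold, limma adjusted p = 3.8e-05) had the smallest p of the 38 genes and the same sign in 7 of 7 strains. In C57BL/6J CR hearts lay at 9.84, 10.10 and 10.35 and control hearts at 10.28, 10.46 and 11.08, whereas in CBA/J they lay at 10.64, 10.79 and 11.01 under CR and 10.71, 10.83 and 10.97 in controls. The call was lost only when DBA/2J CR replicate 7 was put back (-0.26, adjusted p = 0.0656). Postn, a matricellular protein of activated fibroblasts and valves, was 6.59, 8.16 and 10.35 in CR hearts and 7.05, 8.47 and 10.68 in control hearts, an effect of -0.22 ± 0.12 (adjusted p = 0.232). Tgfbi, a TGF-beta-induced adhesion protein, had an effect of 0.13 (adjusted p = 0.206).

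Fn1 encodes fibronectin, the scaffold on which collagen first assembles. It was 6.48, 7.86 and 11.66 in CR hearts and 6.72, 8.03 and 9.63 in control hearts, and its effect of -0.04 ± 0.13 (limma adjusted p = 0.89) did not pass. The highest value came from DBA/2J CR replicate 6, and DBA/2J CR replicate 3 followed at 10.02. Without C57BL/6J the effect was 0.07.

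Of the 7 elastic fibre genes measured, Fbln5 fell. Fibulin-5 (probe set 10402211) brings elastin and LOXL1 together during fibre assembly. It was 6.73, 7.29 and 8.38 in CR hearts and 6.96, 7.48 and 8.24 in control hearts, an effect of -0.16 ± 0.058 (1.12-fold lower, limma adjusted p = 0.045) with 5 strain effects below 0. This was the least stable of the 7 calls and missed the threshold in 10 of 30 alternatives, at up to 0.239 without C57BL/6J. Eln, elastin itself, was 5.79, 6.51 and 7.91 in CR hearts and 5.90, 6.64 and 7.41 in control hearts, with an effect of -0.12 (adjusted p = 0.189). Fbln1, Fbln2, Emilin1, Mfap4 and Mfap5, which coat or border elastic microfibrils, had effects of 0.04, -0.06, -0.03, -0.11 and -0.0026.

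The small leucine-rich proteoglycans set fibril spacing, and 0 of 5 passed. Lum, lumican, lay nearest to the threshold. It was 7.90, 9.13 and 10.03 in CR hearts and 7.70, 8.73 and 10.02 in control hearts, an effect of 0.22 ± 0.081 (adjusted p = 0.063), above 0 in 6 strains. Bgn, Dcn, Fmod and Ogn had effects of -0.11, -0.03, 0.05 and 0.07. Of the genes that turn the matrix over, Timp3, a matrix-bound inhibitor of metalloproteinases, was 9.09, 10.11 and 10.97 in CR hearts and 9.01, 9.97 and 10.86 in control hearts, an effect of 0.15 ± 0.056 (adjusted p = 0.054). Mmp2, the gelatinase of fibroblasts, and Timp2, its inhibitor and activator, had effects of -0.0044 and 0.00053.

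**Figure D2:**
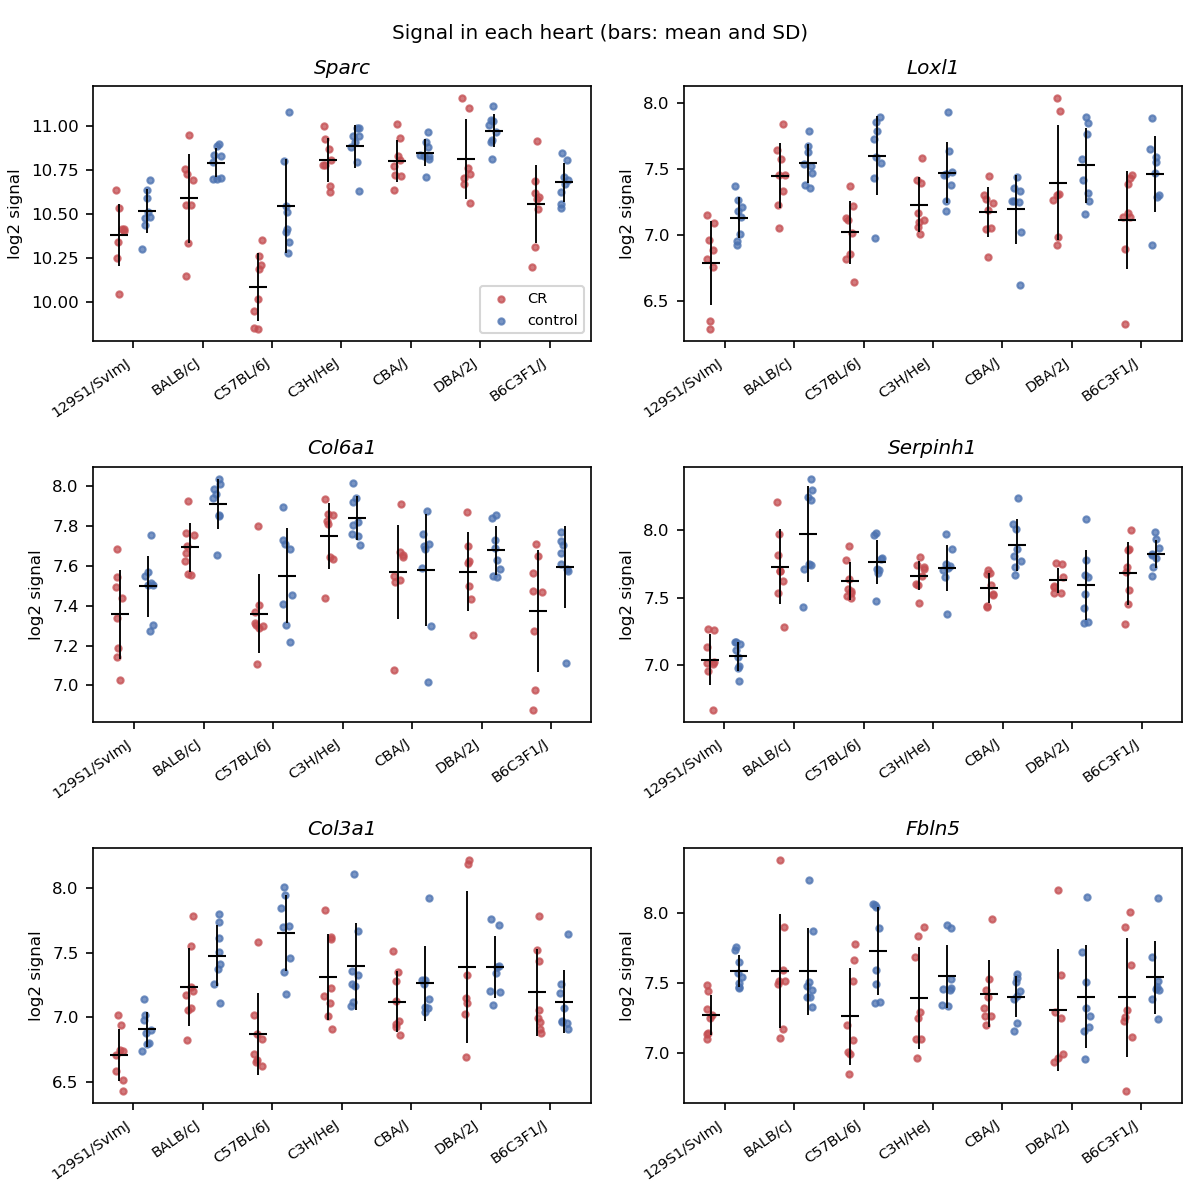
Log2 signal of 6 of the genes that fell, for each heart, by strain, with CR hearts (red) left of control hearts (blue) and bars for the mean and SD. Sparc and Loxl1 means lie lower under CR in all 7 strains, while points of the diets overlap in most strains.

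Signals of many matrix genes moved with the atrial markers from heart to heart. When the means of the atrial and of the white adipocyte markers were added to the fit, 18 of the 38 genes were higher with more atrial marker signal and 0 were lower, against 2.77% and 1.34% of all genes. The slope was 0.34 ± 0.044 log2 units per log2 unit for Fmod (limma adjusted p = 4.7e-09), 0.23 ± 0.026 for Fbln1 and 0.18 ± 0.022 for Timp2. Of the 7 genes that fell under CR, 3 had a called slope, namely Fbln5 (0.11, adjusted p = 0.0072), Col3a1 (0.11, 0.0084) and Loxl1 (0.10, 0.043). The slope was -0.02 ± 0.021 for Sparc (adjusted p = 0.675), and it was 0.03 for Col6a1, Serpinh1 and Col5a1, none of them called. With more adipocyte marker signal 4 genes were higher and 0 lower, against 3.20% and 4.39% of all genes, namely Col12a1, Lox, Eln and Col18a1.

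**Figure D3:**
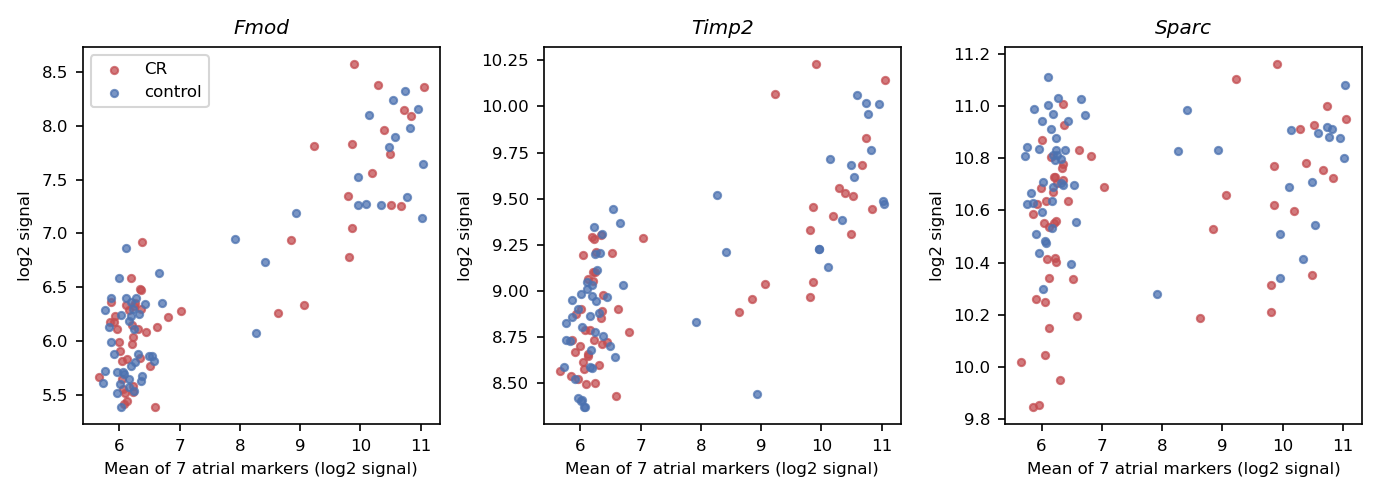
Log2 signal of Fmod, Timp2 and Sparc in each heart against the mean log2 signal of 7 atrial cardiomyocyte markers in the same heart, for CR (red) and control (blue) hearts. Hearts fall into an atrial-poor and an atrial-rich set in both diets, and Fmod and Timp2 but not Sparc had a called slope.

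With these covariates, 13 matrix genes were lower under CR and 4 were higher, against 5.37% and 8.86% of all genes, and all 7 genes called without covariates were among them. The further genes lower were Col6a2, Col18a1, Col1a1, Eln, Bgn and Postn. Those higher were Tgfbi (0.13 ± 0.037, limma adjusted p = 0.0097), Timp3 (0.14 ± 0.043, 0.019), Lum (0.21 ± 0.069, 0.025) and Col14a1 (0.14 ± 0.047, 0.034). For type III and type I collagen the effect hardly moved and its error was smaller. Col3a1 had -0.20 ± 0.040 with covariates and -0.20 ± 0.057 without, and Col1a1 -0.11 ± 0.038 (adjusted p = 0.033) and -0.11 ± 0.047. With the 6 arrays that stand apart left out as well, 12 were lower and 4 higher. That fit was added after the data were seen, and its share of all genes was not counted.

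Markers of fibroblasts outside the matrix genes, the cells that make most of this mesh, had effects on both sides of 0. Of 9 measured, 1 fell (Meox1, -0.14, adjusted p = 0.023) and 0 rose, and their median effect was -0.0010. The mean of the 9, CR minus control, differed by -0.24 in C57BL/6J and by 0.15 in CBA/J. Among endothelial markers 4 of 12 fell and 0 rose, and among macrophage markers 3 of 8 rose and 0 fell. Among white adipocyte markers, whose mean is a covariate above, 3 of 9 fell (Fabp4, Lipe and Pnpla2) and 0 rose. That covariate therefore holds genes that were themselves called under CR. The same test called 4.34% of all genes lower and 7.69% higher. Fits with 1 marker mean at a time, added after the data were seen, had 7 (fibroblast), 8 (endothelial) and 9 (epicardial) matrix genes lower. The share of all genes called in these fits was not counted. The part of macrophages was not tested.

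No matrix gene had a called strain by diet interaction, against 0.712% of all genes, and 3 had an unadjusted p under 0.05, against 14.7% of all genes. The smallest adjusted p were 0.139 (Col3a1), 0.24 (Lox), 0.26 (Sparc), 0.382 (Loxl1 and Eln) and 0.384 (Timp3). Col3a1 and Lox did pass without the 6 arrays that stand apart, at 0.0026 and 0.0079, as did Postn at 0.032. With the marker covariates Timp3 alone passed, at 0.024.

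C57BL/6J stood apart in the strain-by-strain contrasts. Its CR effect was lower than the mean of the other 6 strains for Col3a1 (difference -0.68, limma adjusted p = 0.0175) and Sparc (-0.34, 0.0435), out of 38 genes, against 1.25% of all genes. In the other strains 0 matrix genes passed this test, against 5.68% of all genes in B6C3F1/J, 0.150% in 129S1/SvImJ, 0.120% in CBA/J, 0.0201% in DBA/2J and 0% in BALB/cJ and C3H/HeJ. Fitted on its own arrays, C57BL/6J had 36 of 38 effects below 0 with a median of -0.32, 19 of them lower at an unadjusted p under 0.05 (6.33% of all genes were), and 1 call against 0.100% of all genes lower and 0.150% higher. That call was Col3a1, at 6.62, 6.77 and 7.58 in CR hearts and 7.18, 7.71 and 8.01 in control hearts, a difference of -0.78 ± 0.14 (limma adjusted p = 0.022). Loxl1, at -0.58 ± 0.13 (adjusted p = 0.069), came next. Postn had the widest difference, at -1.06, with 7.77, 7.95 and 9.71 in CR hearts and 8.40, 9.35 and 10.31 in control hearts.

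In C57BL/6J, markers of other tissue also differed between the diets, so diet and tissue content cannot be told apart in this strain. The atrial marker mean was 7.33 ± 1.99 in CR hearts and 9.66 ± 1.61 in control hearts (SD, n = 8 each), a difference of -2.33, and the difference was -1.11 for white adipocyte and -0.71 for epicardial markers. Within the strain with covariates, 0 matrix genes were called and the median effect was -0.08. Col3a1 was then at -0.50 (adjusted p = 0.30). The count turns on 1 heart. Without C57BL/6J CR replicate 4, whose atrial mean was 10.49, 11 matrix genes were called in this strain in place of 1, all lower, against 1.80% of all genes lower and 2.78% higher in the same fit. They were led by Col3a1 (-0.88), Postn (-1.27) and Mfap4 (-0.93). Likewise 11 differed from the other strains in place of 2, against 9.10% of all genes. Without C57BL/6J control replicate 4, the heart low in Myl2, Col3a1 was at -0.77 (adjusted p = 0.0381) and was the 1 call in the strain, against 0.176% of all genes lower and 0.145% higher. Its difference from the other strains was then -0.68 (adjusted p = 0.0262), while that of Sparc was -0.30 and no longer passed (0.0988). Within the strain and without that heart, Loxl1 was at -0.56 (limma adjusted p = 0.105) and Postn at -1.07 (0.18), neither of them called.

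In 129S1/SvImJ, where all atrial marker means lay between 5.91 and 6.24, 3 matrix genes fell and 1 rose, against 2.94% and 3.88% of all genes. Fbln5 was 7.10, 7.27 and 7.49 in CR hearts and 7.47, 7.56 and 7.76 in control hearts, a difference of -0.32 ± 0.070 (limma adjusted p = 0.0073) with groups that overlapped only at their edges. Lox was 4.95, 5.35 and 5.68 in CR hearts and 5.58, 5.67 and 6.07 in control hearts (-0.43 ± 0.098, adjusted p = 0.0095). Eln did not overlap at all, at 6.13, 6.51 and 6.57 in CR hearts and 6.62, 6.71 and 6.92 in control hearts (-0.29 ± 0.067, adjusted p = 0.012). These genes encode elastin, an enzyme that crosslinks it and a protein that places it. The other elastic fibre genes measured were not called in this strain, with effects of 0.04 (Fbln1), -0.10 (Fbln2), -0.03 (Emilin1), -0.08 (Mfap4) and -0.07 (Mfap5). Timp3 rose, with 10.07, 10.29 and 10.62 in CR hearts and 9.59, 9.94 and 10.15 in control hearts (0.41 ± 0.096, adjusted p = 0.011). For these 4 the test against the mean of the other strains did not pass (adjusted p 0.946 or more), and in a fit of all 14 groups, with its wider spread, 0 were called in this strain. With covariates Eln alone was called (-0.33, adjusted p = 0.048), and the effects of the others were of like size, at -0.30 for Fbln5 (0.092), -0.39 for Lox (0.092) and 0.42 for Timp3 (0.073). Other marker means also differed between CR and control in this strain, by -0.23 for endothelial, -0.22 for Schwann, 0.19 for macrophage and -0.14 for white adipocyte markers, and their part was not tested within it beyond the adipocyte covariate.

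The other 5 strains had 0 matrix genes called. In BALB/cJ, with 0% of all genes called in either direction, 30 of 38 effects were below 0, and Col6a1 (-0.22) and Postn (-0.43) had the smallest p. In B6C3F1/J (0.697% of all genes lower, 0.211% higher), Lum was 8.54, 9.67 and 10.03 in CR hearts and 8.21, 8.67 and 9.63 in control hearts, a difference of 0.69 ± 0.24 (limma adjusted p = 0.13), and Loxl1 had -0.34. The atrial mean there was 8.43 ± 1.95 in CR and 7.05 ± 2.02 in control hearts. C3H/HeJ (0.0301% lower, 0.0251% higher) had Loxl1 at -0.24 and Col6a2 at -0.11 as smallest p. In CBA/J (0.00502% lower, 0.0100% higher) these were Serpinh1 at -0.32 ± 0.090 (adjusted p = 0.42) and Col8a1 at 0.30. In DBA/2J (0% lower, 0.0100% higher) they were Col15a1 at -0.22 and Timp3 at 0.35.

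**Figure D4:**
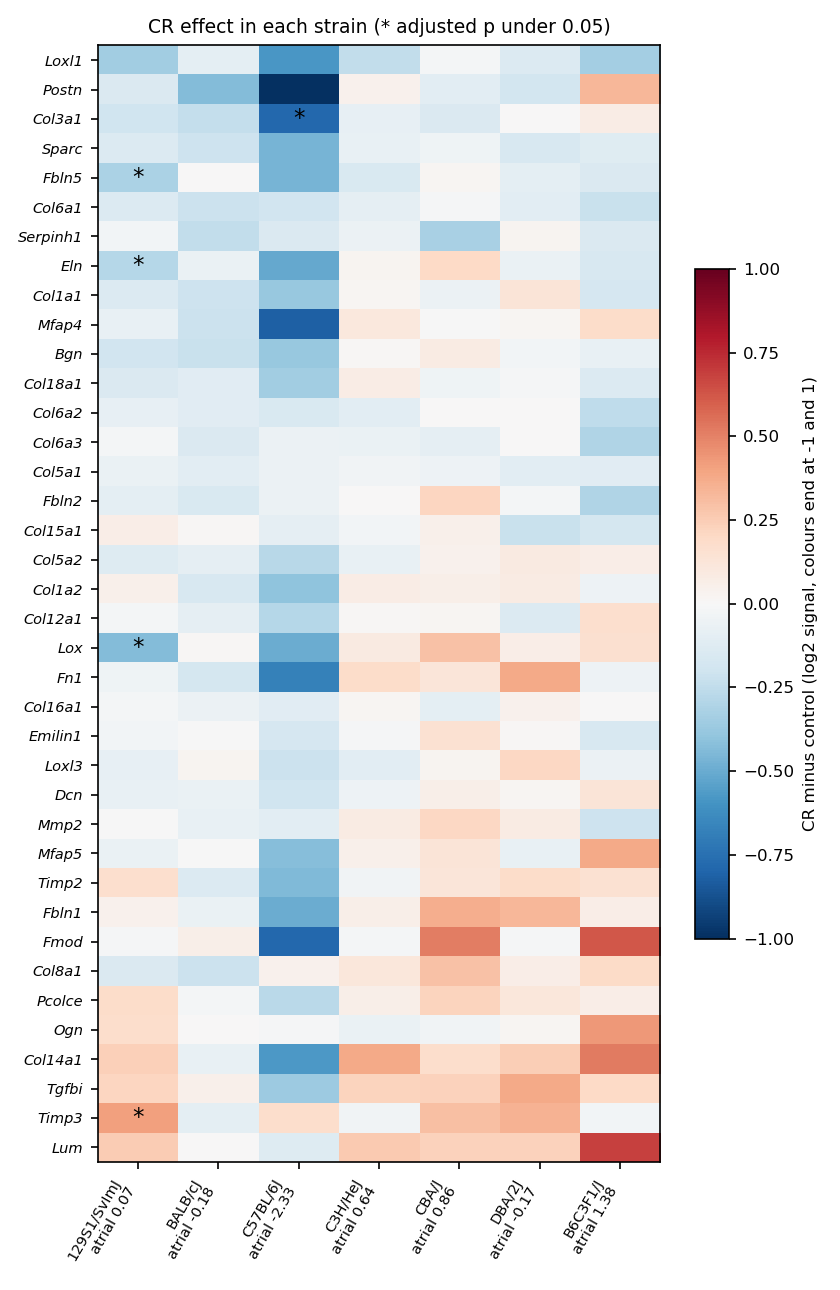
CR minus control on the log2 scale for each matrix gene (rows, ordered by the across-strain effect) in each strain (columns), fitted on the strain's own arrays, with stars at an adjusted p under 0.05. Under each strain stands the CR minus control difference of its mean atrial marker signal. C57BL/6J, at -2.33, has 36 of 38 genes below 0.

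Between the control hearts of the 7 strains, 33 of 38 matrix genes differed (limma F test), against 60.7% of all genes, and 31 did with the marker covariates, against 58.0%. The 5 that did not pass were Col16a1, Col18a1, Fn1, Eln and Fbln5. In 31 of the 38 genes 129S1/SvImJ had the lowest mean, and the highest was that of BALB/cJ in 22 and of C57BL/6J in 13. This order ran with the atrial markers only in part. The atrial mean was highest in C57BL/6J controls (9.66 ± 1.61) and lowest in 129S1/SvImJ controls (6.05 ± 0.096), but was 7.66 ± 1.98 in BALB/cJ controls.

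Postn had the widest span of strain means, 2.33 log2 units, with 9.77 ± 0.40 in BALB/cJ and 7.43 ± 0.30 in 129S1/SvImJ controls (SD, n = 8 each, limma adjusted p = 3.0e-09). The ranges of these strains did not meet, since BALB/cJ hearts spanned 9.43 to 10.68 and 129S1/SvImJ hearts 7.05 to 7.87. The other means were 9.29 in C57BL/6J, 9.06 in DBA/2J, 8.54 in C3H/HeJ, 8.41 in CBA/J and 8.17 in B6C3F1/J, and neighbours in this order differed by less than the larger of their SDs, except B6C3F1/J and 129S1/SvImJ. Fmod, fibromodulin, spanned 1.60, with 7.24 ± 0.68 in C57BL/6J and 5.64 ± 0.15 in 129S1/SvImJ. Col14a1 spanned 1.50 (7.46 ± 0.50 in BALB/cJ, 5.97 ± 0.16 in 129S1/SvImJ), Mfap5 1.45 (8.75 ± 0.47 in C57BL/6J, 7.30 ± 0.26 in 129S1/SvImJ) and Mfap4 1.28 (7.77 ± 0.50 in C57BL/6J, 6.49 ± 0.22 in 129S1/SvImJ). All 5 have 129S1/SvImJ lowest. Postn, Fmod, Col14a1 and Mfap4 also had a called atrial slope, and all 5 still differed with the covariates.

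**Figure D5:**
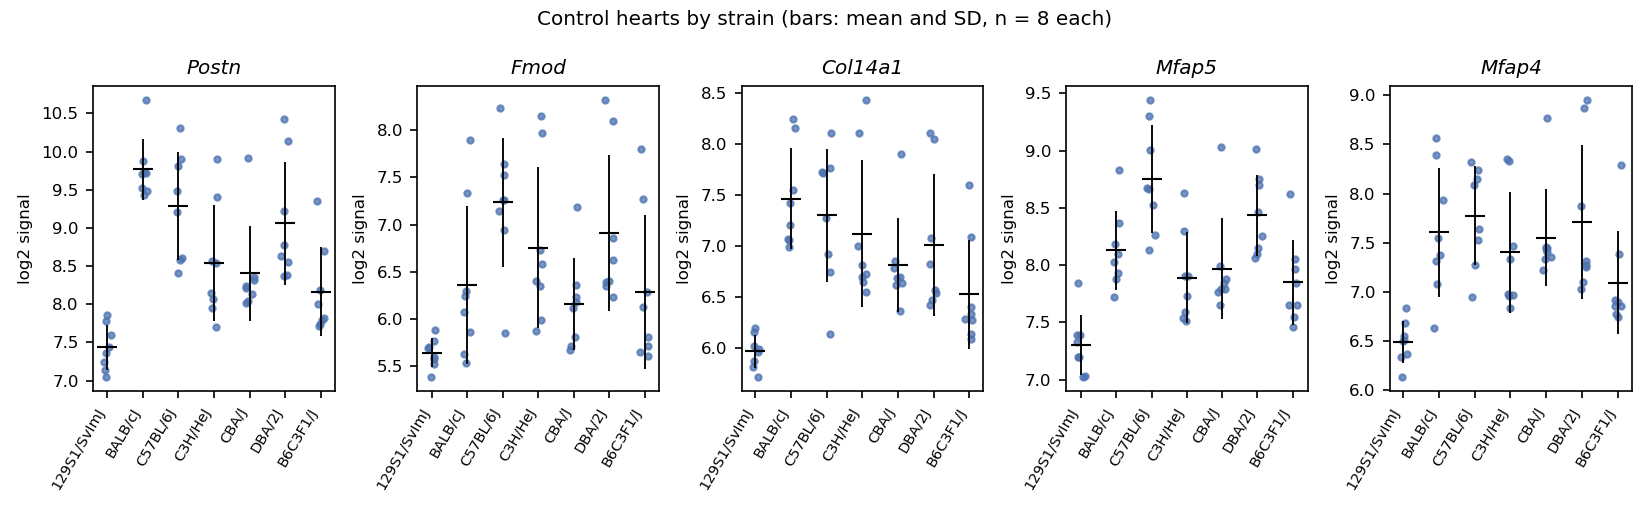
Log2 signal in the control hearts of each strain for the 5 matrix genes with the widest span of strain means, with bars for the mean and SD (n = 8 each). 129S1/SvImJ is lowest in each panel, and Postn spans 2.33 log2 units.

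Serpinh1 was low in 129S1/SvImJ. Its control mean was 7.07 ± 0.11 there and between 7.60 and 7.97 in the other strains, and all 8 hearts of 129S1/SvImJ (6.88 to 7.17) lay below every control heart of the rest, whose lowest was 7.31. Col6a3 was highest in C3H/HeJ, at 7.01, and lowest in 129S1/SvImJ, at 6.07.

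B6C3F1/J control hearts were set against the mean of their parent strains. For 34 of 38 genes the hybrid lay below the parents' mean, and 4 passed, all lower, against 4.01% of all genes lower, 5.94% higher and 9.96% either way. Lox was 5.22 in the hybrid and 5.73 for the parents' mean (-0.52, limma adjusted p = 0.021), and the hybrid lay nearer to C3H/HeJ (5.23) than to C57BL/6J (6.24). Col1a2 was 7.38 in the hybrid and 7.76 for the parents (-0.38, 0.028), Col3a1 7.12 and 7.52 (-0.40, 0.032) and Mfap5 7.85 and 8.32 (-0.47, 0.036). Without C57BL/6J control replicate 4 these 4 and Dcn (-0.24, 0.0472) passed. With the marker covariates 0 passed, the adjusted p of these 4 being 0.209 to 0.242. The atrial mean was 7.05 in hybrid controls, against 9.66 in C57BL/6J and 7.58 in C3H/HeJ controls.

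Genes around the matrix were examined by lists, with the across-strain test that called 4.34% of all genes lower and 7.69% higher. No list was tested against these shares. Among cell surface receptors for collagen and fibronectin, 3 of 12 fell and 0 rose. They were the integrin chains Itgb5 (-0.20 ± 0.043, limma adjusted p = 2.3e-04), Itga5 (-0.21 ± 0.052, 0.0019) and Itgav (-0.15 ± 0.040, 0.0050), of which Itga5 pairs with the beta-1 chain to bind fibronectin and Itgav with Itgb5 to bind vitronectin. The median effect of the list was -0.08.

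In TGF-beta signalling, the main inducer of matrix genes in fibroblasts, 2 of 19 fell and 0 rose. Tgfb2, a ligand, had -0.18 ± 0.051 (limma adjusted p = 0.011) and Ltbp3, which holds latent TGF-beta in the matrix, -0.14 ± 0.049 (0.049). Ccn2, a target of the pathway, had -0.19 (0.169) and did not pass. Median effect was -0.07.

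Of 19 collagen biosynthesis enzymes 3 fell and 4 rose. P3h2, a prolyl 3-hydroxylase, had -0.18 (limma adjusted p = 0.0039), Creb3l1, a factor that drives collagen secretion in bone, -0.18 (0.0043), and Plod2, the lysyl hydroxylase of collagen telopeptides, -0.12 (0.039). Ppib, cyclophilin B, rose by 0.15 (0.0049), Adamts3, a procollagen N-proteinase, by 0.15 (0.0197), Crtap, a part of the prolyl 3-hydroxylation complex, by 0.13 (0.021), and Pcolce2, a relative of Pcolce, by 0.17 (0.0397). Naming all 7 was decided after their values were seen. Among matrix proteases, inhibitors and uptake genes, 3 of 16 fell and 0 rose, namely Mmp13 (-0.14), Mmp9 (-0.13) and Mmp14 (-0.13), the first and second at mean signals of 4.91 and 4.79, below the 40th percentile of all genes (5.20). Of 31 other interstitial matrix proteins, Col5a3, a further type V chain, fell (-0.12, 0.0062) and Emilin2 rose (0.23, 5.5e-04).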

How the data were processed

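Heart RNA (5 µg) of each mouse was hybridised to 1 Affymetrix Mouse Gene 1.0 ST array. The deposited values are log2 signals that the authors computed with RMA in Affymetrix Expression Console, for which no version is given in the sources used here. RMA normalizes arrays to one distribution, so a change shared by most genes is not visible, and log2 signals of different probe sets cannot be set against each other. Arrays carry no read depth, and precision is limited by their number.

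Of 35556 probe sets, 21789 have 1 symbol in the platform annotation, 1621 several and 12146 none. The brightest probe set with a single symbol stood for each of 19938 genes. Groups came from the labels, 0 columns of per-sample values were left unused, and 1 array was left out (DBA/2J CR replicate 7). The linear model held 14 group means (limma 3.58.1, R 4.3.3), with Benjamini-Hochberg adjustment over all genes and a threshold of 0.05. Effects within a strain were fitted on that strain's arrays. The fit was tested on simulated data. Figures were drawn with matplotlib 3.10.9 in Python 3.11.15.

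The members and gene lists were chosen with earlier results of these data known. Values are given for genes past the threshold across strains, the 6 smallest interaction p, the 2 smallest p in each strain, the 5 widest control ranges, Col1a1, Col1a2, Col3a1, Fn1, Sparc and Loxl1, and up to 3 genes of each pathway list. The alternatives were further quantile normalization, centring, the mean of all probe sets, dim genes (under the 40th percentile) left out, array weights, a trended robust variance, no moderation, the replicate block, marker covariates, the left-out array, 6 arrays that stand apart, 1 control heart low in Myl2, and each strain left out. Each matrix gene has a single probe set, so the mean of all probe sets leaves its own values unchanged. Some fits were added after the data were seen. They are the covariates with the 6 arrays or C57BL/6J left out, the single-marker fits, and the fit without the control heart low in Myl2. Mice within a group were separate animals, and the labels give no scan or extraction batch.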

Additional observations from a re-analysis of the deposited data

Results flagged for a closer look

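Single hearts far from the rest of their group were looked for in 154 sets of a gene and a group, and 13 were found, where chance marks about 1 in 20 such sets. Col3a1 stood high in C57BL/6J CR replicate 4 (7.58, next 7.02), CBA/J control replicate 1 (7.93, next 7.29) and B6C3F1/J control replicate 4 (7.65, next 7.26). Col6a1 stood high in C57BL/6J CR replicate 2 (7.80) and low in CBA/J CR replicate 7 (7.07) and B6C3F1/J control replicate 7 (7.11). Fbln5 stood high in CBA/J CR replicate 2 (7.96) and Col1a2 in BALB/cJ control replicate 2 (8.48). Col1a1 stood low in CBA/J control replicate 2 (6.60) and B6C3F1/J control replicate 7 (6.57). Fn1 stood low in 129S1/SvImJ CR replicate 2 (7.14), CBA/J control replicate 2 (7.03) and B6C3F1/J control replicate 7 (6.72).

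B6C3F1/J control replicate 7 was the lowest of its group for 3 of these genes, and CBA/J control replicate 2 for 2.

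The CR effect in C57BL/6J differed from the mean of the other strains for Col3a1 (-0.68, limma adjusted p = 0.0175) and Sparc (-0.34, limma adjusted p = 0.0435). With the atrial and white adipocyte covariates neither passed, and Sparc did not pass without C57BL/6J control replicate 4 (-0.30, 0.0988).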

How the results depend on the processing

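Under 30 alternatives Loxl1 and Col6a1 kept their call, Sparc and Serpinh1 in 29, Col3a1 in 28, Col5a1 in 23 and Fbln5 in 20, and these 7 effects stayed below 0. Col5a1 missed it without 129S1/SvImJ (adjusted p = 0.0825), BALB/cJ (0.0757), C57BL/6J (0.0551), DBA/2J (0.0799) or B6C3F1/J (0.0676) and with endothelial markers as a covariate (0.0866), and Fbln5 without DBA/2J control replicate 5 (0.0574), BALB/cJ control replicate 7 (0.0574), B6C3F1/J CR replicate 2 (0.0665) or C3H/HeJ control replicate 6 (0.0584). Fn1 turned to 0.0408 without the 6 arrays, 0.0685 without C57BL/6J and 0.000696 with fibroblast markers as a covariate, and Col1a2 to 0.00978 without C57BL/6J. The cause was not tested.

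For most alternatives the share of all genes called was not counted. Changes in the matrix gene counts below therefore cannot be told from changes shared by all genes. The count of genes lower across strains (7) became 13 with atrial and white adipocyte covariates, 12 with these and the 6 arrays left out, 11 with array weights, and 4 without 129S1/SvImJ or without C57BL/6J. Genes higher (0) became 4 with the covariates, with or without the 6 arrays, 3 with fibroblast or epicardial markers as a covariate, 2 with dim genes left out, array weights, the 6 arrays out, C57BL/6J out, or covariates with C57BL/6J out, and 1 after centring, with endothelial markers, or without BALB/cJ, C3H/HeJ or B6C3F1/J.

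The interaction count (0) became 20 with array weights, 3 without the 6 arrays and 1 with the covariates, with or without the 6 arrays. Gene and strain pairs that differed from other strains (2) became 36 with array weights, 23 without the 6 arrays, 1 after centring, with the covariates, with covariates and C57BL/6J out, or without 129S1/SvImJ, C3H/HeJ, CBA/J or B6C3F1/J, and 0 with DBA/2J CR replicate 7, without C57BL/6J, or with fibroblast or epicardial markers. Hybrid calls (4) became 14 with array weights, 7 without DBA/2J, 2 without 129S1/SvImJ, and 0 with DBA/2J CR replicate 7, with the covariates (with or without the 6 arrays) or with fibroblast or epicardial markers.

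Calls in C57BL/6J (1) became 22 with array weights, 11 without the 6 arrays, 6 in 1 fit of all 14 groups, 2 after quantile normalization or with dim genes left out, and 0 with the covariates or with no moderation. Calls in 129S1/SvImJ (4) became 7 with dim genes left out, 1 with the covariates and 0 in the fit of all groups. B6C3F1/J (0) had 8 with array weights and 2 in the fit of all groups, and CBA/J (0) had 2 with array weights. Array weights moved most counts upwards.

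Leaving out in turn 1 of 6 arrays, or C57BL/6J control replicate 4 (added after the data were seen), gave 6 to 8 genes lower, 0 to 2 higher (2 without C3H/HeJ control replicate 6), 0 to 1 interactions, 1 to 11 pairs (11 without C57BL/6J CR replicate 4, 1 without C57BL/6J control replicate 4), 1 to 7 hybrid calls (7 without CBA/J control replicate 1 or C57BL/6J CR replicate 4, 1 without C3H/HeJ control replicate 6) and 1 to 11 calls in C57BL/6J (11 without its CR replicate 4). Same-numbered mice of the diets did not deviate together in every pair. Their mean correlation was 0.20 in BALB/cJ, against -0.009 for mice of other numbers, and 0.18 against -0.02 in B6C3F1/J. It was below that of other numbers only in C3H/HeJ (-0.07 against 0.01). Whether replicate numbers mark a shared batch was not tested, and the labels do not say. With the replicate block 1 gene was higher, B6C3F1/J had 1 call and Col5a1 had -0.08 (adjusted p = 0.0516).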
